A study of Homo sapiens with 4 samples.

Results

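The endothelins and the nitric oxide synthases were followed in cisplatin-resistant head and neck squamous cell carcinoma (HNSCC) cells. The group holds 9 of the 43305 genes measured. They are the endothelin peptides EDN1, EDN2 and EDN3, their receptors EDNRA and EDNRB, the converting enzyme ECE1, and the nitric oxide synthases NOS1, NOS2 and NOS3. They were taken by gene name, with every probe that carried one of these names. The set was chosen by the measured log2 differences between resistant and parental cells, which were known when it was proposed, so those differences are given as a description and were not tested.

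Endothelins are short peptides cut from larger precursors, and ECE1 makes the final cut. They act through the G protein-coupled receptors EDNRA and EDNRB, which constrict or relax blood vessels and also drive growth of epithelial and tumor cells. Nitric oxide synthases make nitric oxide from arginine. NOS1 is the neuronal enzyme, NOS2 the inducible one and NOS3 the endothelial one, and nitric oxide made by NOS3 relaxes vessels and opposes the constriction caused by endothelin.

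HN4 and HN30 are human HNSCC cell lines, grown in DMEM with 10% FBS and without stated cisplatin. HN4/DDP and HN30/DDP, which the labels call HN4_CR and HN30_CR, were made from them by stepwise increase of cisplatin, a DNA-crosslinking drug, and were kept in 20 μM cisplatin, for 48 h per the labels. Total RNA of each line was hybridised to 1 one-colour Agilent array, so each of the 4 conditions had n = 1. Changes acquired during selection and changes caused by the drug in the medium at harvest cannot be told apart in this design. The sources do not say whether the resistant lines are single clones.

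Values are processed signals, which are background-subtracted intensities, and log2 signals minus the 75th percentile of their array. A gene was counted as higher in a resistant line when its log2 difference from the parental line exceeded 2 with the resistant spot well above background. It was counted as lower when the difference was below -2 with the parental spot well above background. The SD given with a difference comes from the scanner's error for the spots and leaves out variation between cultures and labellings. The 4 arrays lay on 1 slide with 1 scan, had no saturated spots, and had a 75th percentile of signal between 444.4 and 496.1. The HN30/DDP array stood apart at the dim end, with 63.58% of spots well above background against 55.26% to 59.02% on the others, and a 25th percentile of signal of 8.13 against 5.64 to 5.79. The part of this in the HN30/DDP differences was not tested, and the HN4 pair gives each result without that array.

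Of the 9 genes, EDN2 and NOS3 were higher in both resistant lines, and no member was lower in either line. Across all genes, 2.24% were higher in HN4/DDP, 5.48% were higher in HN30/DDP and 0.688% were higher in both, against 1.36%, 1.8% and 0.0808% lower. Because the members were proposed from these differences, nothing is read from the 2 of 9. The median log2 difference of the 9 genes was -0.23 for HN4/DDP and -0.21 for HN30/DDP, beside medians of -0.21 and -0.07 over all genes.

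The probes decide what was measured, so the inner 30 bases of the 60-base probes are shown for the 3 members with the clearest differences. Capitals are not used in these stretches because no part of them was singled out. Positions are those of the array design on hg19. The annotation of that build was not used here, so exon and UTR positions are not given.

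EDN1, main probe, chr6:12296672-12296731, plus strand: ttcagggagaaactccaaagtccacacaaa
EDN1, other probe, chr6:12296218-12296277, plus strand: atgatcccaagctgaaaggcaagccctcca
EDN2, chr1:41944456-41944515, minus strand: ttttagaccctctatttacctgcgaacttg
NOS3, main probe, chr7:150711495-150711554, plus strand: gccacccgcttcctgtttcttagtcgaatg
NOS3, other probe, chr7:150699304-150699363, plus strand: ccctcgaacacgagacgctggtgctggtgg

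The 2 NOS3 probes lie at different places of the gene and carry different RefSeq accessions. The main one is tied to NM_000603 and the other to NM_001160109. The 2 EDN1 probes lie close together on the chromosome.

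The upstream bases of EDN2 and NOS3 are shown because these 2 genes were counted as higher in both lines. RefSeq's promoter table (GRCh38.p14) held 7 of the 9 members, with 14 start sites, and the 250 bases before each start were searched on both strands for 5 motifs: the CRE TGACGTCA, the CRE core TGACG that lies within it, the AP-1 motif TGAGTCA, the hypoxia core ACGTG and the NRF2 core TGACNNNGC. TGACG can also overlap the NRF2 core. A GC box, GGGCGG, and a TATA box, TATAAA, were added after the first 5 had no match in EDN2 or NOS3. Capitals mark a match to any of the 7.

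EDN2, chr1:41484684-41484933, minus strand: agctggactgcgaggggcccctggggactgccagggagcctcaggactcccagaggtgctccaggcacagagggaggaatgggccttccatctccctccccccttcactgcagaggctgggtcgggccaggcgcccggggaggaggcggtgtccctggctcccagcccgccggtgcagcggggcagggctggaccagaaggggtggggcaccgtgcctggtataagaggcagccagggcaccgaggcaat
NOS3, chr7:150993532-150993781, plus strand: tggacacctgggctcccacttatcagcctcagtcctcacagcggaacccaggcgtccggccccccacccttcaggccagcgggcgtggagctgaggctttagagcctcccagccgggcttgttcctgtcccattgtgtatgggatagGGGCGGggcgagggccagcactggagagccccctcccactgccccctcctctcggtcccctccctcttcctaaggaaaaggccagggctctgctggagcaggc

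The EDN2 window held none of the 7 motifs. The NOS3 window held 1 GC box, 103 to 98 bases before the start. Of all 35116 windows of this length, 1.65% held the CRE, 21.22% the CRE core, 4.2% the AP-1 motif, 18.51% the hypoxia core, 10.91% the NRF2 core, 42.64% the GC box and 10.72% the TATA box. Among the members' 14 start sites, 8 had a GC box and 1, of EDN1, had a TATA box. GC content was 70.8% for EDN2 and 66.8% for NOS3, beside a median of 58.0% over all windows. These matches describe letters in a window and say nothing of which factors bind there.

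**Figure D1:**
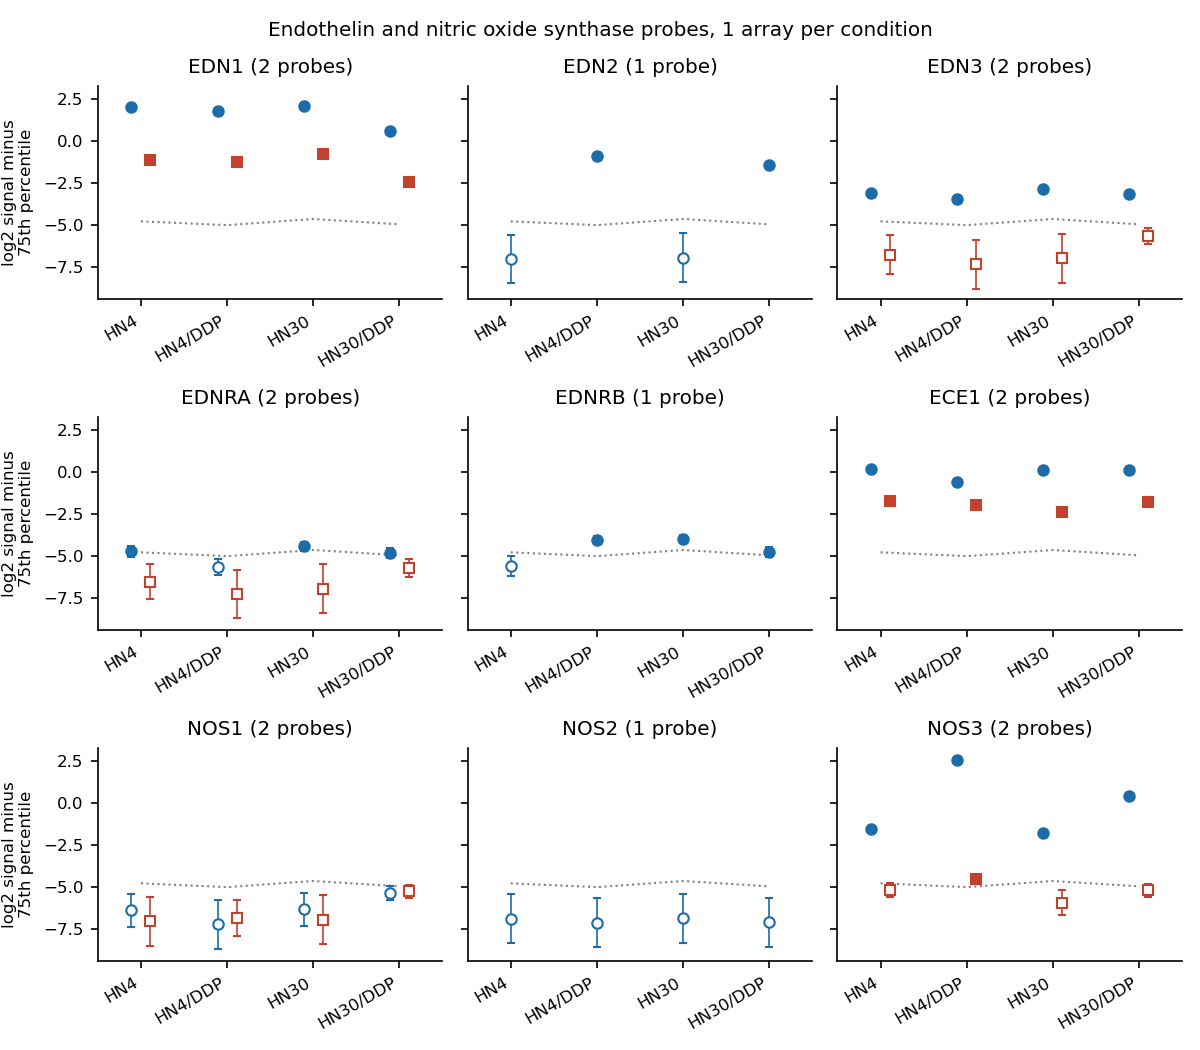
Normalized log2 signal (y axis, log2 signal minus the array's 75th percentile) of all 15 member probes on the 4 arrays (x axis), with 1 panel per gene. Blue circles are the main probe and red squares the other probe, filled where the spot was well above background and open where it was not, bars are the scanner SD, and the dotted line is the lowest log2 signal well above background on each array. EDN2 goes from open points near -7 on both parental arrays to filled points at -0.89 and -1.42, and the main NOS3 probe goes from -1.57 to 2.54 and from -1.75 to 0.43.

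Among the ligands, EDN2 stood out. Its signal went from 3.85 in HN4 to 267.9 in HN4/DDP, and from 3.67 in HN30 to 179.5 in HN30/DDP. Both parental values were at the level of the negative control spots, whose median signal was 3.77 in HN4 and 3.67 in HN30, and both resistant values were well above background. The log2 differences of 6.11 (scanner SD 1.45) in HN4/DDP and 5.50 (scanner SD 1.45) in HN30/DDP therefore rest on parental values that have no measured level. Set against the lowest signal well above background on the parental array, EDN2 was at least 14.7-fold higher in HN4/DDP and at least 9.25-fold higher in HN30/DDP. Folds given as at least leave out the scanner error of the brighter spot and depend on the processing, so they are not strict lower limits. With normexp background correction, which lifts dim spots, the EDN2 log2 differences were 2.34 in HN4/DDP and 1.90 in HN30/DDP. In a bulk sample, more cells with EDN2 and more RNA per cell cannot be told apart. Between the resistant lines, EDN2 was 0.53 log2 units lower in HN30/DDP (scanner SD 0.21).

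EDN1, the main endothelin of blood vessels and of many epithelia, had a different pattern. Its main probe read 2015.5 in HN4 against 1730.4 in HN4/DDP, and 1883.1 in HN30 against 732.1 in HN30/DDP. Only the HN30/DDP array stood apart from the rest. The log2 difference was -0.23 (scanner SD 0.20) in HN4/DDP and -1.47 (scanner SD 0.20) in HN30/DDP, where the signal was 2.78-fold lower, short of the threshold of -2. The other EDN1 probe read 222.0, 212.1, 259.9 and 88.9 on the same 4 arrays, with log2 differences of -0.07 and -1.66. Both probes thus put HN30/DDP lowest. In HN30/DDP, EDN1 and EDN2 differed from the parental line in opposite directions.

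EDN3, the endothelin best known for its part in neural crest and melanocyte development, varied little. Its main probe read 58.1 in HN4 against 46.1 in HN4/DDP, and 61.3 in HN30 against 55.0 in HN30/DDP. The log2 differences of -0.34 (scanner SD 0.25) and -0.27 (scanner SD 0.24) were small beside the threshold. The other EDN3 probe was not well above background on any array.

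ECE1, the membrane metalloprotease that cuts big endothelin to the active peptide, was well above background on every array with both probes. The main probe read 551.8 in HN4 against 330.4 in HN4/DDP, and 472.1 in HN30 against 526.9 in HN30/DDP. HN4/DDP was the lowest array, with a log2 difference of -0.75 (scanner SD 0.20), and HN30/DDP differed from HN30 by 0.05 (scanner SD 0.20). The other probe read 152.8, 130.1, 87.4 and 138.7 and gave -0.24 and 0.56. The 2 probes had the same signs within each pair but differed on which array was lowest.

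Both receptor genes were near the detection limit. EDNRA, the receptor that favours EDN1 and EDN2 over EDN3, read 18.99 in HN4, 20.8 in HN30 and 17.25 in HN30/DDP, and a dim 10.1 in HN4/DDP. It was at least 1.22-fold lower in HN4/DDP than in HN4, with a log2 difference of -0.91 (scanner SD 0.57). HN30/DDP differed from HN30 by -0.38 log2 units (scanner SD 0.42). The other EDNRA probe was not well above background on any array.

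EDNRB, the receptor that binds the 3 peptides alike, read 10.4 in HN4 against 30.5 in HN4/DDP, and 27.9 in HN30 against 18.1 in HN30/DDP. The HN4 array was the only one not well above background. EDNRB was at least 1.67-fold higher in HN4/DDP than in HN4, with a log2 difference of 1.54 (scanner SD 0.63), and the log2 difference in HN30/DDP was -0.74 (scanner SD 0.39). The signs were opposite in the 2 lines, and both values were short of the threshold. The parental lines also differed, with EDNRB at least 1.71-fold higher in HN30 than in HN4.

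Among the synthases, NOS3 alone was well above background. The main NOS3 probe went from 166.35 in HN4 to 2889.7 in HN4/DDP, and from 131.73 in HN30 to 647.47 in HN30/DDP. All 4 values were well above background, and each resistant array exceeded both parental arrays. NOS3 was 17.3-fold higher in HN4/DDP (log2 difference 4.11, scanner SD 0.21) and 4.56-fold higher in HN30/DDP (log2 difference 2.19, scanner SD 0.21). The HN30/DDP difference minus that of HN4/DDP was -1.93 log2 units, which 1 array per condition does not allow to be tested. In HN30/DDP it lay just past the threshold of 2, and with each array centred on its median it was 1.77.

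The other NOS3 probe gave no difference of that size. It read 13.83 in HN4 against 21.89 in HN4/DDP, and 7.41 in HN30 against 13.3 in HN30/DDP, and was well above background only in HN4/DDP. There it was at least 1.20-fold higher, with a log2 difference of 0.66 (scanner SD 0.49), and the log2 difference in HN30/DDP was 0.73 (scanner SD 0.82). The NOS3 values above are those of the main probe, whose sequence is shown near the start. Because the other probe was near the detection limit, it cannot show whether the transcripts it covers rose or not.

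NOS1 and NOS2 were not well above background on any array. The NOS1 probes read 3.4 to 12.8, and the NOS2 probe 3.6 to 4.3. Probes that were dim on all 4 arrays, 19542 in number, had log2 differences from -1.29 to 1.03 in HN4/DDP and from -1.21 to 1.32 in HN30/DDP (5th to 95th percentile). The NOS1 differences of -0.81 and 0.21 in HN4/DDP and the NOS2 differences of -0.23 and -0.21 lay within these ranges. In HN30/DDP the main NOS1 probe lay within it at 0.96 and the other above it at 1.69, with both spots dim.

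**Figure D2:**
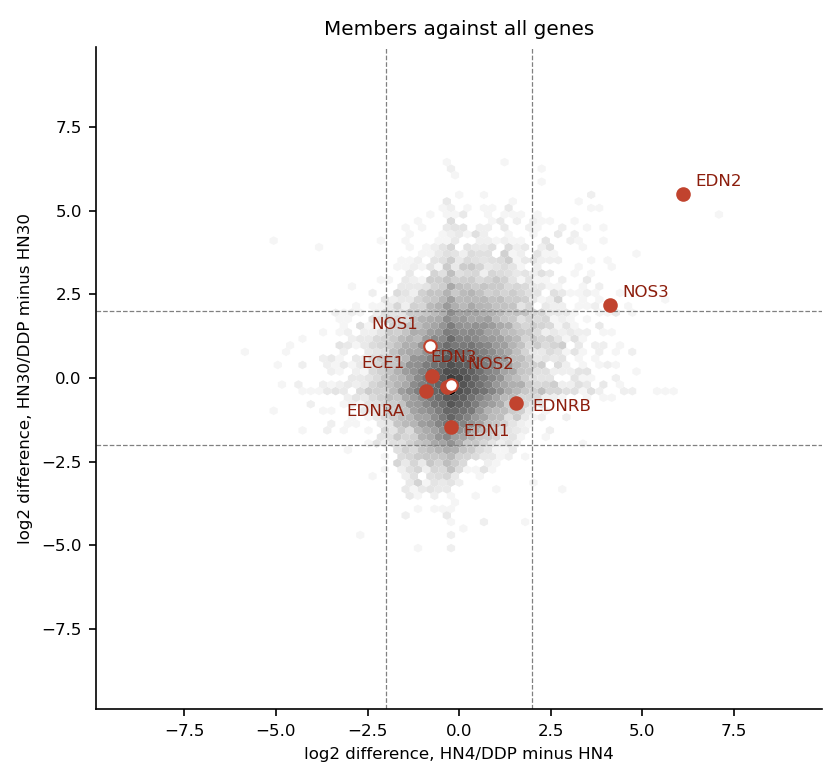
Log2 difference of HN4/DDP from HN4 (x axis) against that of HN30/DDP from HN30 (y axis), with the number of genes in grey (darker for more, on a log scale) and the 9 members in red, open where no array was well above background. Dashed lines mark 2 and -2. EDN2 (6.11 and 5.50) and NOS3 (4.11 and 2.19) lie past both thresholds, and the other 7 members lie inside them.

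NOS3 overlaps another gene. ATG9B, an autophagy gene on the minus strand, has a RefSeq span that shares 2380 bases with that of NOS3 at its 3′ end. All 8 ATG9B probes had a log2 difference above 0 in HN4/DDP, from 0.64 to 4.56, and 4 were counted as higher. In HN30/DDP 7 of the 8 were above 0, in a range of -0.42 to 2.28, and 1 was counted as higher. That one was dim in HN30, and its signal of 19.3 in HN30/DDP gave no fold above 1 against the lowest signal well above background. How much of either gene's signal comes from the other strand was not tested. EDNRB-AS1, antisense to EDNRB, had 1 probe well above background, with log2 differences of 0.22 in HN4/DDP and -0.03 in HN30/DDP.

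**Figure D3:**
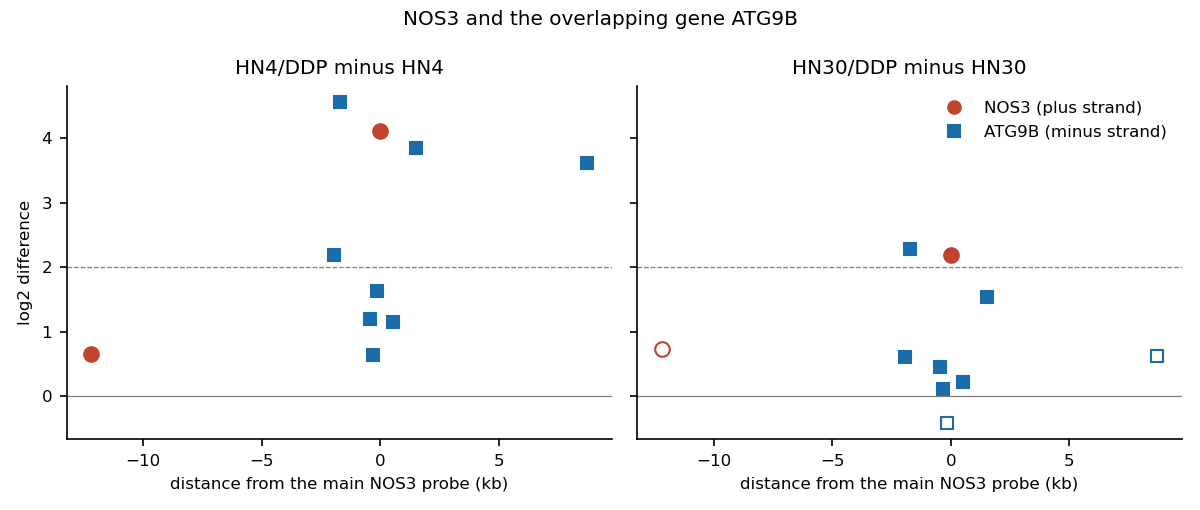
Log2 difference (y axis) of the 2 NOS3 probes (red circles, plus strand) and the 8 ATG9B probes (blue squares, minus strand) against distance from the main NOS3 probe in kb (x axis), for each resistant line. Filled points were well above background on at least 1 array of the pair, and the dashed line marks 2. The main NOS3 probe, at 4.11 and 2.19, lies among ATG9B probes that reach 4.56 and 2.28, and the other NOS3 probe, the leftmost point, lies at 0.66 and 0.73.

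The genes whose 4 values most resembled those of EDN2 and NOS3, after centring each gene on its own mean, were sought among 13984 genes that were well above background on both resistant arrays. For EDN2 they were AKR1B10 (root mean square difference 0.24 log2 units), KLK7 (0.37) and AKR1B15 (0.42). AKR1B10 and AKR1B15 are aldo-keto reductases and KLK7 is a skin protease. Like EDN2, KLK7 was dim on both parental arrays, and AKR1B10 was dim in HN30, so these distances rest in part on values with no measured level. AKR1B10 and AKR1B15 are close in sequence and can share signal. In all, 5 genes lay within 0.5 of EDN2 and 41 within 0.5 of NOS3. Those nearest to NOS3 were MSMB (0.08), PNLIPRP2 (0.18) and TRABD2A (0.21). MSMB and PNLIPRP2 were dim on both parental arrays and TRABD2A in HN30. The likeness is over 4 arrays, and it is given as a description.

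Genes that act with the endothelins and nitric oxide were taken as 7 lists with 119 genes on the array. In HN4/DDP 4 of these were higher and 5 lower, in HN30/DDP 10 were higher and 7 lower, and none was higher or lower in both. As shares of the 119 genes these are 3.36% higher and 4.2% lower in HN4/DDP, beside 2.24% and 1.36% of all genes. For HN30/DDP they are 8.4% higher and 5.88% lower, beside 5.48% and 1.8%. The median log2 difference was -0.20 in HN4/DDP and -0.31 in HN30/DDP. Of the 10 counted as higher in HN30/DDP, 5 were dim in HN30, and of the 4 in HN4/DDP, 2 were dim in HN4.

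**Figure D4:**
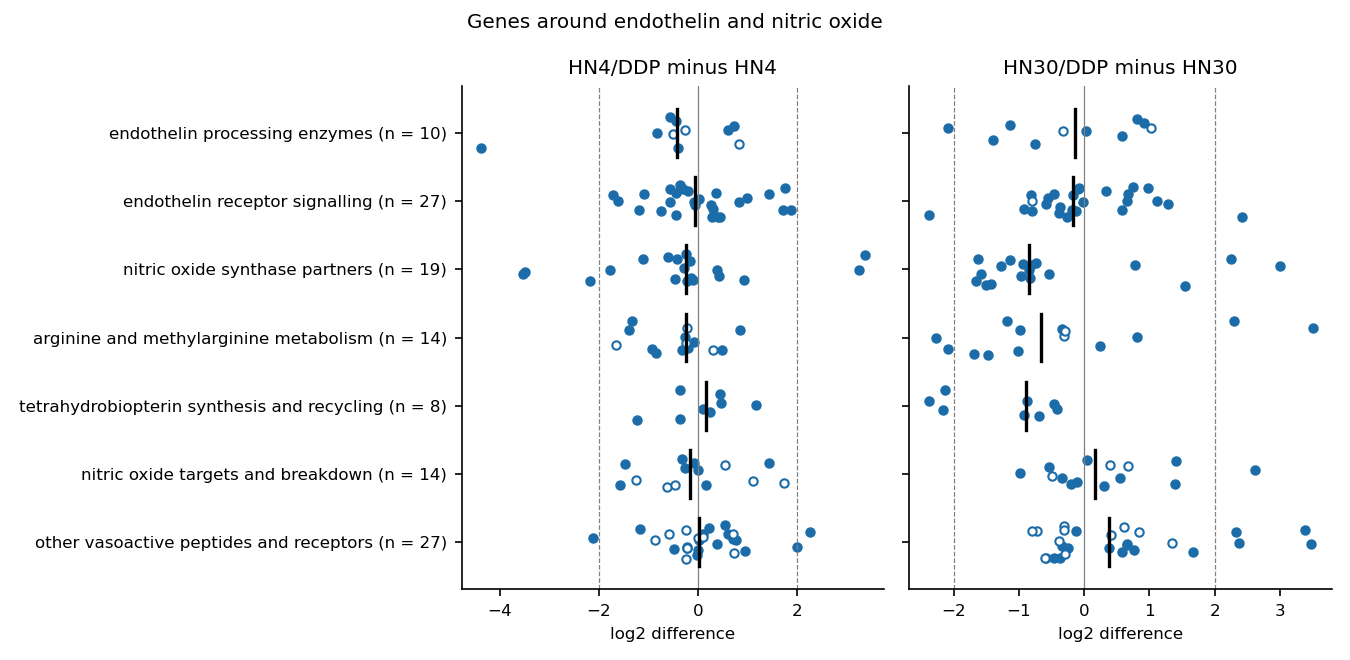
Log2 difference (x axis) of each gene of the 7 lists (y axis, with the number of genes), for HN4/DDP from HN4 and HN30/DDP from HN30. Filled points were well above background on at least 1 array of the pair, black bars are list medians, and dashed lines mark 2 and -2. The tetrahydrobiopterin genes all lie below 0 in HN30/DDP, and 3 synthase partners lie below -2 in HN4/DDP.

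The proteins that bind the synthases or move them in the cell held the 3 largest falls in HN4/DDP among list genes well above background on both arrays. CAV1, which binds and inhibits NOS3 in caveolae, read 76291.4 in HN4 and 6608.6 in HN4/DDP, a log2 difference of -3.54 (scanner SD 0.20). In the other pair it read 56255.7 and 19365.4, a difference of -1.65. CAV2 had differences of -2.19 and -1.26 and CAV3 of -3.50 and -1.50 in HN4/DDP and HN30/DDP, so that all 3 caveolins were lower in HN4/DDP and short of the threshold in HN30/DDP. NOSTRIN, which takes NOS3 from the plasma membrane, rose in HN4/DDP from 227.2 to 2177.5 (log2 difference 3.26) but read 133.3 and 86.1 in the HN30 pair (-0.74). In HN30/DDP the 2 partners counted as higher were NOS1AP (at least 3.54-fold) and DLG4 (2.25), both known as NOS1 partners at synapses. The 19 partners had a median of -0.24 in HN4/DDP and -0.84 in HN30/DDP.

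Tetrahydrobiopterin is the cofactor that the synthases need. In HN30/DDP all 8 genes of its synthesis and recycling had log2 differences below 0, with a median of -0.90, and 3 were counted as lower. Over all genes 53.1% were below 0 and 1.8% were lower in that line. Among these were PTS, the second enzyme of the synthesis, at -2.16, and PCBD2, of the recycling step, at -2.13. PTS read 14457.2 in HN30 and 3481.6 in HN30/DDP. In HN4/DDP the same list had a median of 0.17 and 3 of 8 genes below 0, beside 62.3% of all genes. GCH1, the rate-limiting enzyme, had differences of 0.45 and -0.41.

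Arginine and its methylated forms set the substrate and its inhibitors. DDAH2, which breaks down methylarginines that inhibit the synthases, rose in HN30/DDP from 1072.5 to 5697.5 (log2 difference 2.30) and had a difference of 0.85 in HN4/DDP. DDAH1 had differences of -0.93 and -1.01. PRMT6, an arginine methyltransferase, was lower in HN30/DDP (-2.08, against -0.85 in HN4/DDP). ARG1, which splits arginine, was at least 1.47-fold lower in HN30/DDP (log2 difference -2.26, scanner SD 1.03). The arginine carrier SLC7A7 was at least 2.31-fold higher there (log2 difference 3.505, scanner SD 1.46), after a dim reading in HN30. The 14 genes had medians of -0.25 and -0.66.

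Of the 10 endothelin processing enzymes, PCSK5, a proprotein convertase, was at least 5.03-fold lower in HN4/DDP, where its signal went from 78.1 to a dim 3.7. In HN30/DDP the probe named ECE2 was counted as lower (log2 difference -2.08), but its accession, NM_032331, is now that of EEF1AKMT4. The other probe named ECE2, which RefSeq ties to the readthrough gene EEF1AKMT4-ECE2, was dim on all 4 arrays, so no level of ECE2 is given, and without that name 6 of the list genes were lower in HN30/DDP. FURIN, which makes the first cut of the precursors, had differences of -0.83 and 0.03.

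Among the 27 genes of receptor signalling, RGS16, which shuts off G proteins, rose in HN30/DDP from 807.3 to 4671.6 (log2 difference 2.42) and had a difference of 1.77 in HN4/DDP. PLCB2, a phospholipase of that pathway, fell in HN30/DDP from 323.6 to 67.1 (-2.38) and had a difference of -0.21 in HN4/DDP. The list medians of -0.07 and -0.17 lay near those of all genes.

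Among the 14 targets of nitric oxide, PRKG2, a cGMP-dependent kinase, was at least 1.23-fold higher in HN30/DDP (log2 difference 2.62, scanner SD 1.47). GUCY1A1, a subunit of the nitric oxide receptor that the array lists as GUCY1A3, had log2 differences of -1.58 and -0.99, and its partner gene GUCY1B1 was dim on all 4 arrays. The list medians were -0.16 and 0.17.

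Among the 27 other vasoactive peptides and receptors, ADM2, an adrenomedullin-like peptide, rose in HN30/DDP from 70.7 to 845.2 (log2 difference 3.47) and had a difference of 0.54 in HN4/DDP. BDKRB1, the inducible bradykinin receptor, rose in HN30/DDP from 321.4 to 1739.8 (2.33), with 0.22 in HN4/DDP. AGT, the angiotensin precursor, was at least 2.31-fold higher in HN30/DDP (log2 difference 3.39, scanner SD 0.44). The natriuretic peptide receptor NPR3 was at least 1.05-fold higher there (log2 difference 2.37, scanner SD 1.47), with a signal of only 20.4 in HN30/DDP. In HN4/DDP, the natriuretic peptide receptor NPR2 was at least 1.37-fold higher and VIPR1, a receptor for vasoactive intestinal peptide, was lower (-2.12). The list medians were 0.02 and 0.38.

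The labelled cell type was checked with marker genes. All 9 squamous epithelium markers were well above background in HN4, HN4/DDP and HN30, and 8 of 9 in HN30/DDP. NOS3 is also known from endothelium, whose 11 markers were well above background for 4 genes in each line of the HN4 pair, 3 in HN30 and 6 in HN30/DDP. Their summed signal went from 241.1 in HN4 to 370.9 in HN4/DDP, and from 211.0 in HN30 to 350.4 in HN30/DDP. KDR, TEK, TIE1, ERG and EMCN, 5 of the 11, were dim on all 4 arrays, with signals of 3.2 to 6.2, whereas CDH5 was well above background on all 4, with signals of 45.6 to 77.2. VWF was at least 5.37-fold higher in HN4/DDP and had a log2 difference of 1.49 in HN30/DDP. ESAM was higher in HN4/DDP (2.05) but had -0.56 in HN30/DDP, and CLDN5 was higher in HN30/DDP (at least 5.75-fold). CDH5 had -0.62 and -0.59, and ROBO4 had -0.17 in HN4/DDP and 0.61 in HN30/DDP. PECAM1 had opposite signs, at least 2.05-fold lower in HN4/DDP and at least 1.64-fold higher in HN30/DDP. The part of these markers in the NOS3 values was not tested.

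**Figure D5:**
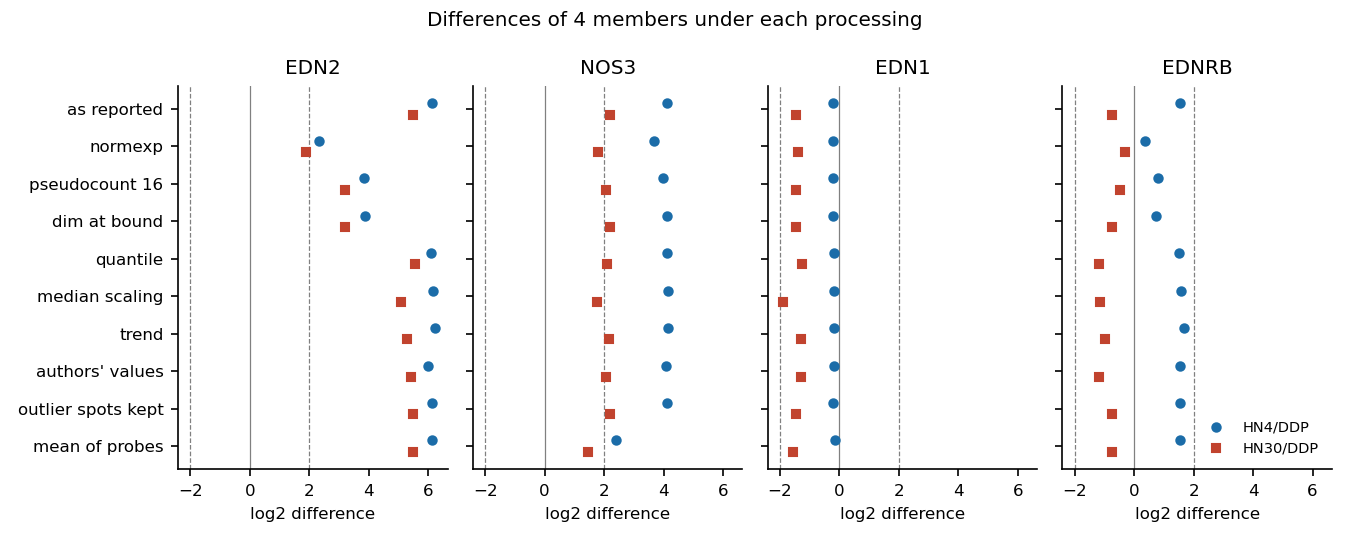
Log2 difference (x axis) of EDN2, NOS3, EDN1 and EDNRB in HN4/DDP (blue circles) and HN30/DDP (red squares) as reported and under 9 other ways to process the signals (y axis), with dashed lines at 2 and -2. EDN2 is at 2.34 and 1.90 with normexp background correction and at 6.11 and 5.50 as reported, NOS3 in HN30/DDP lies between 1.46 and 2.19, and no point of these 4 genes changes sign.

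The counts of EDN2 and NOS3 as higher in HN30/DDP depended on how signals were processed. With normexp background correction, which lifts dim spots, EDN2 differed by 2.34 in HN4/DDP and 1.90 in HN30/DDP. NOS3 differed by 3.69 and 1.79 in the same order. With the mean of its 2 probes NOS3 had differences of 2.39 and 1.46.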

How the data were processed

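The members and gene lists were chosen with earlier results of these data known. The deposited scanner files, made by Agilent Feature Extraction 10.7.1.1 per the labels, hold the processed intensity of each spot, background-subtracted and detrended by the software, with very low values replaced by surrogates. The authors also deposited log2 values for 58341 entries, with a median of 4.65 per array and identical sorted values; earlier steps are not stated in the paper or labels. Outlier spots were left out, copies averaged, log2 intensity centred on the 75th percentile of each array, and the probe of highest mean taken for each gene. Named genes were all members, pathway genes past the threshold in both lines, the 3 largest rises and falls per line, and the 3 nearest genes in pattern. Others on the lists were named after their values were seen, and some list genes are not reported here by name. Folds given as at least used the lowest normalized signal well above background on the dimmer array, or the dim spot's own signal if higher. The 50 bases after each start were not searched. Scripts were tested on simulated data. Alternatives included normexp (limma 3.58.1, R 4.3.3) with offset 50 and pseudocount 16. With 1 array per condition no test was made, so that precision is limited by the number of arrays.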

Additional observations from a re-analysis of the deposited data

Results flagged for a closer look

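In 3 pathway genes the resistant array moved one way in one line and the opposite way in the other, each by over 1 log2 unit and with the brighter array of each pair well above background, and this difference was not tested. VIPR1, a receptor for vasoactive intestinal peptide, had log2 differences of -2.12 in HN4/DDP and 1.68 in HN30/DDP, which lie 3.80 apart. PDE5A, the cGMP phosphodiesterase, had -1.47 and 1.39, which lie 2.86 apart. ITPR2, an inositol trisphosphate receptor, had -1.61 and 1.11, which lie 2.72 apart. SLC7A7 also had opposite signs (-1.67 and 3.505), but its probe was dim on both arrays of the HN4 pair.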

How the results depend on the processing

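No test was run, paired or not: the labels give each condition replicate number 1 alone, and a comparison of the 2 pairs of lines, which would leave 1 residual degree of freedom, was possible but was not made because the members were chosen by these differences. Under 9 alternatives the member differences gave 162 values, of which 130 stayed within the scanner SD of the reported one, and no difference past the threshold changed sign. The number of members higher in HN30/DDP and in both lines was 0 and 0 with normexp, 1 and 1 with median scaling, 1 and 1 with the mean of probes, and 1 and 1 (1 also in HN4/DDP) when both arrays had to be above background; at a threshold of 1, 1 member was lower in HN30/DDP. Of the pathway genes, those higher in HN4/DDP and HN30/DDP numbered 2 and 4 with normexp, 2 and 5 with pseudocount 16, 2 and 5 with dim probes at the bound, 2 and 5 with both arrays above background, and 10 and 16 (1 in both) at a threshold of 1; those lower numbered 3 and 3 with normexp and 17 and 20 (5 in both) at a threshold of 1. Median scaling gave 6 higher and 11 lower in HN30/DDP, with 1 lower in both, and removing the intensity trend gave 4 lower there. The cause was not tested. Median scaling moved the median of all genes in HN30/DDP from -0.07 to -0.49, and that in HN4/DDP, -0.21 as reported, was -0.01 with quantile scaling or the authors' values and -0.05 with normexp. In HN30/DDP the small ECE1 difference was -0.37 with median scaling and 0.30 with the mean of probes, EDN3 ranged from -0.72 to 0.53, EDNRA from -0.80 to 0.42 and the dim NOS1 from -0.32 to 1.32. Signal over background limits EDN2 in the parental lines, both receptors and NOS1 and NOS2.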

Other observations

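Markers of other kinds also differed between the resistant and parental lines. Among the squamous keratins, KRT5 was lower in HN4/DDP (log2 difference -4.05, and -1.93 in HN30/DDP), while KRT14, KRT17 and KRT6A were higher in HN4/DDP (2.33, 3.29 and 3.32). KRT14 and KRT17 had differences of 0.22 and 0.19 in HN30/DDP. KRT6A was at least 183-fold lower in HN30/DDP, from 2638.4 to a dim 8.2. CD14, known from monocytes, rose in HN30/DDP from 1564.6 to 18918.7 (3.49) and had a difference of 0.56 in HN4/DDP. The 4 leukocyte markers measured had medians of 0.05 in HN4/DDP and 1.57 in HN30/DDP, with PTPRC at -0.10 and 0.16. COL1A1, a fibroblast collagen, had differences of 1.73 in HN4/DDP and 2.43 in HN30/DDP. Of the 7 fibroblast markers 5 were dim on all arrays, and the list medians were -0.24 and -0.01.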
